A study of Oreochromis niloticus with 18 samples.

Results

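Cholesterol is built from acetyl units through mevalonate, isoprene units and farnesyl diphosphate, and then through a series of sterols. It is stored as cholesteryl ester or, in the liver, exported in lipoproteins and turned into bile acids. In mammals the synthesis enzymes are largely controlled together by the sterol-sensing factor SREBP2, and the liver is a main site of synthesis and esterification. Thyroid hormones are known in mammals to act on hepatic cholesterol turnover. Cholesterol in the mammalian brain is mostly made on site.

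The levels of 6 enzyme transcripts of this pathway were followed across tissues in tilapia (Oreochromis niloticus), out of 26763 transcripts measured in every library. They were taken by identifier, as enzymes of synthesis and esterification. MVK (ENSONIT00000016971, mevalonate kinase) and MVD (ENSONIT00000007128, mevalonate diphosphate decarboxylase) act on mevalonate and yield the isoprene unit. FDPS (ENSONIT00000008001, farnesyl diphosphate synthase) joins isoprene units to farnesyl diphosphate, from which sterols, dolichol, ubiquinone side chains and protein prenyl groups are made. MSMO1 (ENSONIT00000012736, methylsterol monooxygenase) removes methyl groups from early sterols. DHCR7 (ENSONIT00000004014) is the sterol reductase that yields cholesterol. SOAT2 (ENSONIT00000006424, sterol O-acyltransferase) joins cholesterol to a fatty acid and is thus the esterifying enzyme, against 5 synthesis enzymes. The names come from the study's own cluster lists of transcripts that it had called changed in some tissue, and the identifiers carry no position in the files.

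Juvenile fish aged 4 months, before sexual differentiation, were kept for 12 h in water with 25 nM T2 or 25 nM T3, or were not treated. T2 is a diiodothyronine that lacks an iodine atom carried by T3, the main active thyroid hormone. Liver, cerebellum and thalamus-pituitary were sequenced in 2 libraries for each of the 9 groups, 18 in all. A liver library came from 1 fish and a cerebellum or thalamus-pituitary library from a pool of 4 fish. The hormones were first dissolved in sodium hydroxide, and whether the control water received it is not given in the sources used here. Tissue pieces, and not sorted cells, were sequenced.

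Effective counts, the estimated counts of reads per transcript adjusted for the usable length, added up to between 1568714 and 6585148 per library. Levels are given as CPM, counts relative to a fixed library size, scaled by the TMM method over the 18 libraries, and the CPM of different transcripts are not compared because transcript lengths were not at hand. Tissue identity was clear from marker transcripts, since those of hepatocytes summed to 44830 CPM or more in every liver library and to at most 39.1 CPM in every brain library. Within the liver, the hepatocyte markers summed to 44830 and 55836 CPM with T2, to 70694 and 74339 CPM with T3, and to 154172 and 174550 CPM in the controls. Exocrine pancreas markers were also abundant in the liver libraries, at 37047 and 43394 CPM with T2 and 63963 and 55633 CPM with T3, against 247298 and 97126 CPM in control replicates 1 and 2. Fewer cells of a type and less RNA per cell cannot be told apart in such samples. TMM factors lay between 0.344 and 0.649 in the liver and between 1.38 and 1.51 in the brain regions, so the liver values depend on the scaling. Scaling by the library total in place of TMM moved the middle of the distribution of liver fold changes to 0.61 with T2 and 0.53 with T3 on the log2 scale, where TMM gave medians of 0.01 and -0.02.

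**Figure D1:**
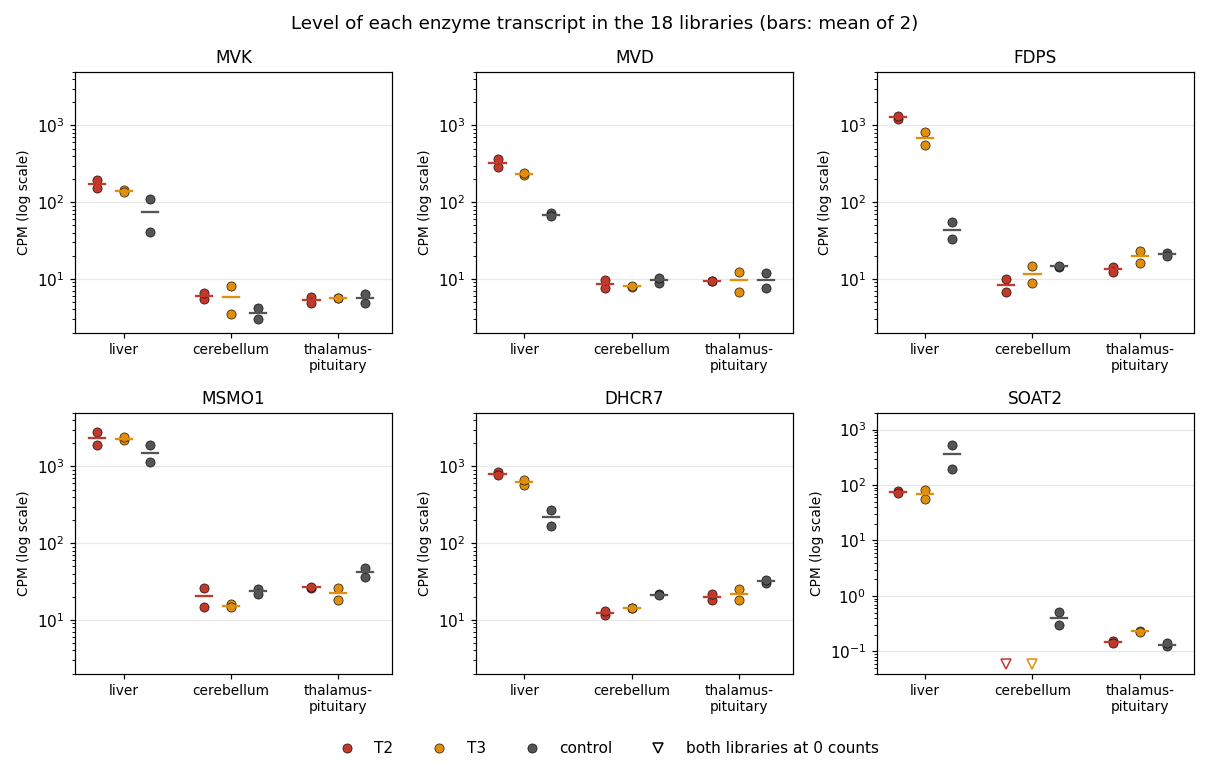
Level of each enzyme transcript in CPM on a log scale, by tissue and treatment; each point is 1 library, each bar the mean of 2, and open triangles mark groups with 0 counts in both libraries. By their means the 5 synthesis enzymes lie highest in T2 livers, then T3 livers, with overlapping libraries for MSMO1. SOAT2 lies highest in control livers, where the 2 libraries measured 525 and 191 CPM.

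In the liver, FDPS, MVD and DHCR7 rose with T2 and SOAT2 fell. FDPS was 32.5-fold higher, MVD 5.32-fold higher and DHCR7 4.08-fold higher than in control livers, and SOAT2 was 4.48-fold lower. MVK and MSMO1 lay above both controls in both T2 livers without passing the test. Thus 4 of 6 members passed the test of T2 against control (edgeR's quasi-likelihood test, adjusted p under 0.05), 3 higher and 1 lower. Of all 10905 transcripts tested, 21% passed, 12.2% higher and 8.85% lower. Under total scaling, 2566 transcripts passed as higher and 338 as lower, against 1325 and 965 with TMM, and 5 members passed, all higher. The members' symbols come from lists of called transcripts that the study drew from these libraries. Of all transcripts with such a symbol, 74.8% passed with TMM, 33.3% higher and 41.5% lower. The count of members is thus not independent evidence of a response or of its direction. All 6 members had T2 libraries that did not overlap the controls, as did 66.7% of all transcripts tested. The median log2 fold change was 1.70 over the 6 members and 0.01 over all transcripts tested.

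Of the mevalonate steps, MVK measured 192 and 151 CPM in T2 livers and 144 and 135 CPM in T3 livers, against 41.2 and 109 CPM in control replicates 1 and 2. Its groups did not overlap, but the controls lay 2.64-fold apart. The log2 fold change of MVK was 1.37 with T2 (standard error 0.42, edgeR adjusted p = 0.0691) and 0.93 with T3 (0.39, adjusted p = 0.158). MVK was thus not called with either hormone. With the deeper control replicate 2 left out it was called with both, at log2 fold changes of 2.11 with T2 and 1.68 with T3 (edgeR adjusted p = 0.0274 and 0.0192), while without control replicate 1 it was 0.94 and 0.50 and not called. MVK with T2 was also called in 6 of the 8 alternatives that kept all libraries, at log2 fold changes between 1.33 and 1.97. These were DESeq2 (adjusted p = 0.0220), edgeR's exact test with and without a low-count filter (0.0220 and 0.0394), the quasi-likelihood test without the filter (0.0381), total scaling (0.0284) and all liver libraries in 1 fit (0.03996). The replicate block and unrounded counts left it uncalled.

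MVD was even within each group, at 288 and 366 CPM in T2 livers and 228 and 243 CPM in T3 livers, against 71.7 and 65.4 CPM in the controls. All 4 hormone-treated livers lay well above both controls. With T2 the log2 fold change of MVD was 2.41 (standard error 0.30, edgeR adjusted p = 0.0119), and with T3 it was 1.81 (0.26, adjusted p = 0.0187). With T2 the call held without any single library. With T3 it was lost without T3 replicate 1 (edgeR adjusted p = 0.0791) or T3 replicate 2 (0.0649), at log2 fold changes of 1.87 and 1.77.

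FDPS had the largest change of the 6 members. It measured 1206 and 1336 CPM in T2 livers and 812 and 552 CPM in T3 livers, against 54.4 and 33.2 CPM in control livers. All 4 hormone-treated livers lay far above both controls, and both T2 livers lay above both T3 livers. The log2 fold change of FDPS was 5.02 with T2 (standard error 0.44, 95% interval 3.95 to 6.10, edgeR adjusted p = 0.0101) and 4.00 with T3 (0.43, 2.94 to 5.07, adjusted p = 0.0135). With T2, 99.4% of the transcripts tested had a lower log2 fold change than FDPS. FDPS stayed called in each of the 8 fits that left out 1 library, 4 for each hormone.

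Of the sterol steps, MSMO1 measured 1922 and 2849 CPM in T2 livers and 2208 and 2395 CPM in T3 livers, against 1141 and 1880 CPM in control livers. The groups did not overlap, but the lower T2 library was close to the higher control. MSMO1 had a log2 fold change of 0.84 with T2 (standard error 0.33, edgeR adjusted p = 0.123) and 0.66 with T3 (0.28, adjusted p = 0.158). MSMO1 was called when the library total alone set the scale, at 1.43 with T2 and 1.21 with T3 (edgeR adjusted p = 0.0238 and 0.0424). Without control replicate 2 MSMO1 was also called with T3 (log2 fold change 0.93, edgeR adjusted p = 0.0263).

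DHCR7 measured 852 and 766 CPM in T2 livers and 575 and 670 CPM in T3 livers, against 268 and 167 CPM in control livers. All hormone-treated livers exceeded both controls. DHCR7 thus had a log2 fold change of 2.03 with T2 (standard error 0.39, edgeR adjusted p = 0.0244) and 1.53 with T3 (0.37, adjusted p = 0.0473). With T2 the call was lost without T2 replicate 1 (log2 fold change 1.95, edgeR adjusted p = 0.0705). With T3 it was lost without T3 replicate 1 or 2 (1.64 and 1.41, edgeR adjusted p = 0.160 and 0.178).

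SOAT2, the esterifying enzyme, was the only one of the 6 that was lower after hormone. It measured 76.7 and 71.3 CPM in T2 livers and 81.4 and 55.2 CPM in T3 livers, against 525 and 191 CPM in control replicates 1 and 2. The hormone-treated livers lay close together, and both controls were above all 4. The log2 fold change of SOAT2 was -2.16 with T2 (standard error 0.57, edgeR adjusted p = 0.0486) and -2.41 with T3 (0.58, adjusted p = 0.0483), both near the threshold. Without control replicate 1 it was -1.09 and -1.34 (edgeR adjusted p = 0.0496 and 0.0399), and without control replicate 2 it was -2.77 and -3.02. The T2 call was lost without either T2 library (edgeR adjusted p = 0.121 without replicate 1 and 0.10 without replicate 2) and the T3 call without either T3 library (0.111 and 0.132). Scaling by the library total alone gave -1.49 and -1.80, neither called (edgeR adjusted p = 0.0786 and 0.0629).

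The control replicate with the most SOAT2, replicate 1, was the shallowest liver library, at 2090510 counts against 4508460 or more in the others. It also had the most exocrine pancreas markers. These markers, 11 transcripts of 9 genes, took 2.40% and 2.45% of all counts in T2 livers and 3.34% and 3.03% in T3 livers, against 8.91% and 3.34% in control replicates 1 and 2, and none of the 11 was at 0 in any liver library. The hepatocyte markers, 13 transcripts of 10 genes, took 2.91% and 3.15% with T2 and 3.69% and 4.04% with T3, against 5.55% and 6.002% in the controls, with at most 1 of the 13 at 0. Blood markers, 5 transcripts, summed to 6236 and 7021 CPM in T2 livers and 5703 and 7601 CPM in T3 livers, against 14130 and 23128 CPM in control livers. The part of these markers in the fall of SOAT2 and in the rise of the other members was not tested.

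With T3 4 of 6 members passed in the liver, 3 higher and 1 lower, and all 4 were among those that passed with T2. FDPS was 16.0-fold higher, MVD 3.51-fold higher and DHCR7 2.88-fold higher, and SOAT2 was 5.30-fold lower than in control livers. Of the 11556 transcripts tested, 13.6% passed, 8.55% higher and 5.05% lower. Under total scaling the split of all transcripts was 2190 higher and 200 lower, against 988 and 584 with TMM, and 4 members passed, all higher. Of all transcripts with a symbol, 54.9% passed with TMM, 26.3% higher and 28.6% lower. As with T2, the choice of symbols makes the count no independent evidence of a response or of its direction. The T3 libraries of all 6 members did not overlap the controls, as for 62.7% of all transcripts tested, and the median log2 fold change was 1.23 over the members and -0.02 over all. Both comparisons share the 2 control livers. The number of members called fell with each hormone when either liver library of that hormone was left out. Calls over all transcripts fell in these fits too, which leave 1 library in a group. With T3 they rose when either control liver was left out, which also leaves 1 library in a group. FDPS was among the members still called each time. With each library left out, its log2 fold change lay between 4.59 and 5.53 with T2 and between 3.57 and 4.50 with T3.

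**Figure D2:**
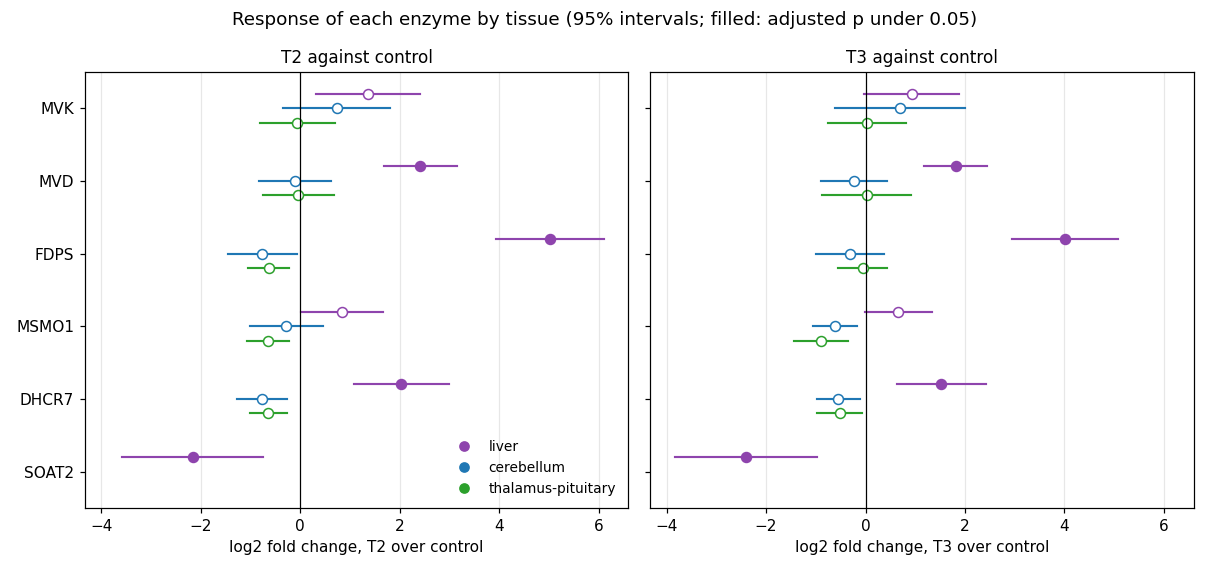
Log2 fold change of each enzyme with T2 (left) and T3 (right) over control, by tissue, with 95% intervals; filled symbols passed the test. FDPS stands at 5.02 and 4.00 in liver, while the 2 brain regions lie between -0.89 and 0.73 for all synthesis enzymes and have no filled symbol; SOAT2 was tested in the liver only.

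T2 and T3 were given at the same dose for the same time and were compared directly in each tissue, without the controls. In the liver 0 of 6 members differed by edgeR's quasi-likelihood test, as against 0.0874% of all 11437 transcripts tested, and 3 had an unadjusted p under 0.05, as did 11.1% of all. FDPS, MVD, MVK and DHCR7 were higher in both T2 livers than in both T3 livers. These were 4 of 6 members, where 15.1% of all transcripts were separate in that direction and 46.3% in either. The difference of FDPS was 1.02 on the log2 scale (95% interval 0.45 to 1.58, edgeR adjusted p = 0.265). It was called by DESeq2 (adjusted p = 0.00490) and by edgeR's exact test after the low-count filter (0.0323), which gave 1 called member each. With each library left out in turn it lay between 0.75 and 1.31 and was not called.

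The intervals of the other members bound how far the hormones could differ. They ran from 0.15 to 1.03 for MVD, from -0.06 to 0.90 for MVK and from 0.07 to 0.92 for DHCR7. For MSMO1 the interval was -0.37 to 0.70 and for SOAT2 -0.36 to 0.83, both of which include 0. In the cerebellum 0 of the 5 members tested differed (0 with an unadjusted p under 0.05, backgrounds 0.0128% and 6.24%), and in the thalamus-pituitary 0 of 5 (1 unadjusted, FDPS, backgrounds 0.0541% and 5.87%). DESeq2 and both exact tests also called 0 members in each brain region, where they called between 0.207% and 0.733% of all transcripts. FDPS measured 14.4 and 12.4 CPM in the thalamus-pituitary with T2 and 23.2 and 16.2 CPM with T3, a log2 fold change of -0.59 (95% interval -1.13 to -0.04, edgeR adjusted p = 0.840).

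**Figure D3:**
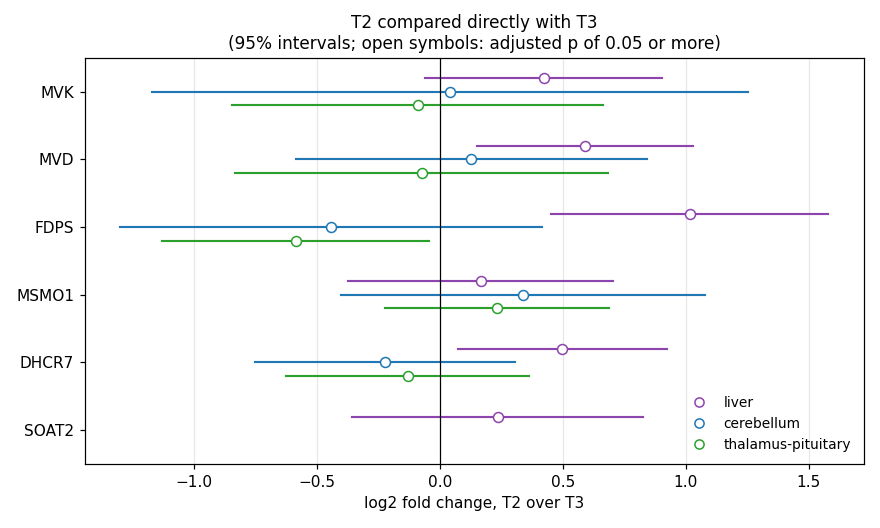
Log2 fold change of T2 over T3 for each enzyme, by tissue, with 95% intervals and open symbols because none passed the test. In liver FDPS, MVD and DHCR7 have intervals above 0, with FDPS at 1.02, and the intervals of MVK, MSMO1 and SOAT2 include 0.

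In the brain regions none of the synthesis enzymes passed the test with either hormone. In the cerebellum 0 of 5 passed with T2 and 0 of 5 with T3 by edgeR's quasi-likelihood test, with backgrounds of 0% and 0%, and 2 and 2 had an unadjusted p under 0.05, as did 4.96% and 10.8% of all transcripts tested. In the thalamus-pituitary 0 of 5 passed with T2 and 0 of 5 with T3, with backgrounds of 0% and 0.00588%, and 3 and 2 had an unadjusted p under 0.05, as did 6.16% and 8.84% of all. DESeq2 and both exact tests also called 0 members in all 4 comparisons. They called between 0.0757% and 1.17% of all transcripts, so 0 of so few members does not set these enzymes apart.

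FDPS, which rose in the liver, stood in the cerebellum at 6.74 and 9.97 CPM after T2 and at 14.5 and 8.94 CPM after T3, against 14.5 and 14.8 CPM in the controls. Both T2 libraries were below both controls, and T2 replicate 1 was also the shallowest library. The log2 fold change of FDPS there was -0.76 with T2 (standard error 0.28, edgeR adjusted p = 0.950) and -0.31 with T3 (0.28, adjusted p = 0.735). In the thalamus-pituitary FDPS stood at 14.4 and 12.4 CPM with T2 and 23.2 and 16.2 CPM with T3, against 22.1 and 19.97 CPM in the controls (log2 fold changes -0.64 and -0.06, edgeR adjusted p = 0.803 and 0.956).

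DHCR7 was below both controls in every hormone-treated brain library. Cerebellum libraries held 11.7 and 12.9 CPM after T2 and 14.3 and 14.4 CPM after T3, against 21.4 and 21.0 CPM in the controls (log2 fold changes -0.78 and -0.55, edgeR adjusted p = 0.935 and 0.384). In the thalamus-pituitary DHCR7 measured 18.3 and 21.9 CPM with T2 and 25.1 and 17.97 CPM with T3, against 30.7 and 32.8 CPM in the controls (-0.64 and -0.52, edgeR adjusted p = 0.803 and 0.532). Blood markers were lower in the same libraries, at 2643 and 2473 CPM with T2 and 2416 and 2057 CPM with T3 in the cerebellum, against 4987 and 3965 CPM in the controls. In the thalamus-pituitary they summed to 2033 and 2564 CPM with T2 and 1901 and 1964 CPM with T3, against 5170 and 2913 CPM in the controls. Glia and myelin markers were also below both controls in these libraries. In the cerebellum they summed to 1357 and 1357 CPM with T2 and 1348 and 1198 CPM with T3, against 1710 and 1566 CPM. Thalamus-pituitary sums were 1812 and 1815 CPM with T2 and 1866 and 1717 CPM with T3, against 2083 and 1890 CPM. Neuron markers were likewise below, except with T2 in the cerebellum, where they overlapped the controls. The part of these markers in the levels of DHCR7 and the other members was not tested. No overlap with the controls was seen for DHCR7 in any of the 6 hormone comparisons, higher in both liver comparisons and lower in the 4 of the brain. Of all transcripts tested, 66.7% and 62.7% did not overlap in the liver with T2 and T3, and between 34.7% and 43.8% in the brain comparisons. The share over all 6 together was not computed. T2 and T3 share the controls of each tissue, so the 6 are not separate observations.

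MSMO1 in the cerebellum was at 26.1 and 14.7 CPM after T2 and at 16.1 and 14.7 CPM after T3, against 25.3 and 21.9 CPM in the controls (log2 fold changes -0.28 and -0.62, edgeR adjusted p = 0.989 and 0.370). Its thalamus-pituitary levels were 26.3 and 27.1 CPM with T2 and 26.0 and 18.2 CPM with T3, against 36.4 and 48.1 CPM in the controls (-0.65 and -0.89, edgeR adjusted p = 0.803 and 0.513). Only in the cerebellum with T2 did MSMO1 overlap the controls, among the 6 hormone comparisons. The shared controls and the shares of all transcripts given for DHCR7 apply here too.

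MVD and MVK were low in the brain regions. MVD in the cerebellum was at 7.64 and 9.68 CPM after T2 and at 7.84 and 8.19 CPM after T3, against 8.76 and 10.3 CPM in the controls, and its 4 log2 fold changes in the brain lay between -0.23 and 0.02. With T2, MVK in the cerebellum was at 5.39 and 6.597 CPM, and at 3.44 and 8.19 CPM with T3, against 4.19 and 2.96 CPM in the controls. In the cerebellum its log2 fold changes were 0.73 (T2) and 0.69 (T3), and those in the thalamus-pituitary -0.06 and 0.02, with standard errors from 0.31 to 0.54. Of the 5 synthesis enzymes, those whose hormone libraries did not overlap the controls numbered 3 in the cerebellum with T2 (1 higher and 2 lower), 3 with T3, 3 in the thalamus-pituitary with T2 and 2 with T3, the last 3 groups all lower. Over all transcripts tested the shares were 34.7%, 43.8%, 38.3% and 41.4%, with 17%, 22.2%, 20.1% and 22.4% separate and lower, and 17.7% separate and higher with T2 in the cerebellum.

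SOAT2 was at or near the limit of detection in the brain regions. It had 0 and 0 counts in the cerebellum with T2, 0 and 0 with T3, and 4 and 1 in the controls. In the thalamus-pituitary it had 1 and 1 counts with T2, 2 and 1 with T3, and 1 and 1 in the controls. With at most 3 counts per library in 5 of the 6 brain groups, no fold change within the brain is given, and SOAT2 did not pass the filter on low counts there.

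Whether a response differed between the liver and a brain region was tested by an interaction term, the log2 fold change in the liver less that in the brain region, fitted to the 8 libraries concerned. Of the 5 synthesis enzymes, 3 had a more positive response in the liver than in the cerebellum with T2 (FDPS, MVD and DHCR7), and the same 3 with T3. Against the thalamus-pituitary the numbers were 3 with T2 (FDPS, MVD and DHCR7) and 2 with T3 (FDPS and DHCR7). The share of all transcripts that passed was 7.39% and 4.49% against the cerebellum, with T2 and T3, and 9.23% and 4.62% against the thalamus-pituitary, of which those more positive in the liver were 5.5%, 3.66%, 6.44% and 3.75%. Because the members come from transcripts that the study called in some tissue of these fish, their counts are not independent evidence of a difference.

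The difference was largest for FDPS, with 5.92 on the log2 scale against the cerebellum with T2 (standard error 0.51, 95% interval 4.75 to 7.08, edgeR adjusted p = 0.00229) and 4.46 with T3 (0.52, adjusted p = 0.00608). Against the thalamus-pituitary FDPS differed by 5.82 with T2 (0.43, edgeR adjusted p = 0.00224) and 4.21 with T3 (0.50, adjusted p = 0.00634). For T3 the FDPS call was lost without replicate 2 of T3 in the cerebellum (log2 difference 4.15, edgeR adjusted p = 0.0604) or in the thalamus-pituitary (3.96, 0.0591). For T2 it held in all fits without a single library.

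MVD differed by 2.62 and 2.15 against the cerebellum with T2 and T3 (standard errors 0.38 and 0.28, edgeR adjusted p = 0.00706 and 0.00813). Against the thalamus-pituitary the difference of MVD was 2.58 with T2 (0.37, edgeR adjusted p = 0.00712) and 1.88 with T3 (0.45, adjusted p = 0.0548), the last not called. That last difference was called by 4 alternatives, DESeq2 (adjusted p = 0.0174), edgeR without the low-count filter (0.0364), total scaling (0.0145) and all libraries in 1 fit (0.0218). The T3 call of MVD against the cerebellum stayed in 4 of 8 fits without a single library and was lost without cerebellum control replicate 1, cerebellum T3 replicate 1 or 2 or liver T3 replicate 1 (edgeR adjusted p up to 0.0772). The T2 call of MVD against the thalamus-pituitary stayed in 6 of 8 and was lost without either T2 library of that region (edgeR adjusted p = 0.0591 and 0.0580). DHCR7, which rose in the liver and lay below the controls in the brain, differed by 2.94 and 2.19 against the cerebellum (standard errors 0.45 and 0.42, edgeR adjusted p = 0.00861 and 0.0275) and by 2.81 and 2.18 against the thalamus-pituitary (0.42 and 0.45, adjusted p = 0.00798 and 0.0356), with T2 and T3 in that order. The T3 calls of DHCR7 were lost without most single libraries, and its T2 calls were lost in some such fits against each region. With each library left out, its T2 differences lay between 2.35 and 3.14 against the cerebellum and between 2.28 and 2.97 against the thalamus-pituitary. Its T3 differences lay between 1.77 and 2.46 and between 1.76 and 2.50, in that order.

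MSMO1 had differences of 1.23 and 1.36 against the cerebellum (edgeR adjusted p = 0.184 and 0.0827) and 1.60 and 1.66 against the thalamus-pituitary (0.0554 and 0.0668), none called. DESeq2 called 3 of these 4, all but T2 against the cerebellum. Its adjusted p was 0.0213 for T3 against the cerebellum and 0.0101 and 0.00627 against the thalamus-pituitary. Of the 6 alternatives that kept all libraries, DESeq2 among them, 2 called MSMO1 for T3 against the cerebellum. Against the thalamus-pituitary 3 of the 6 called it with each hormone, and none called it for T2 against the cerebellum. MVK differed by 0.72 and 0.31 against the cerebellum and 1.49 and 0.96 against the thalamus-pituitary (edgeR adjusted p from 0.139 to 0.914). Without liver control replicate 1, the MVK difference from the cerebellum turned to -0.08 with T2 and -0.31 with T3, and without liver control replicate 2 MVK was called against the thalamus-pituitary with T2 (2.16, edgeR adjusted p = 0.0235) and with T3 (1.76, 0.0313). A difference is not given for SOAT2, because its brain groups were at the floor, apart from the control cerebellum with 4 and 1 counts.

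The number of members called fell when some single libraries were left out, to lower numbers with T3 than with T2. Almost all T3 calls were lost without T3 replicate 2 of the brain region, over all transcripts as well as among the members. A lost call there thus does not mark these enzymes in particular. Every fit without a single library leaves 1 library in a group. Calls over all transcripts fell without a brain or hormone library but rose without a liver control library. The cause of this was not tested. With each library left out, the T3 difference of FDPS lay between 3.97 and 4.83 against the cerebellum. Against the thalamus-pituitary it lay between 3.73 and 4.55. With T2 the FDPS difference lay between 5.26 and 6.39 and between 5.22 and 5.93, in that order.

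**Figure D4:**
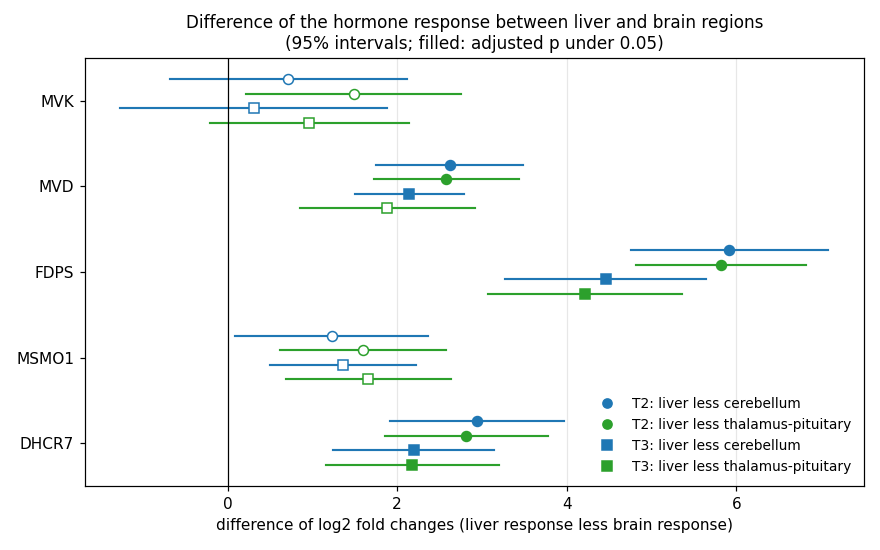
Difference between the log2 fold changes of liver and brain region for each synthesis enzyme and hormone, with 95% intervals; circles are T2, squares T3, and filled symbols passed the test. FDPS stands apart at 4.21 to 5.92, MVD and DHCR7 lie between 1.88 and 2.94, and the intervals of MVK include 0 except against the thalamus-pituitary with T2.

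Without hormone, all 6 members were higher in control liver than in control cerebellum and than in control thalamus-pituitary, and all 6 passed in both comparisons, with TMM scaling. Of all transcripts tested, 62.4% passed against the cerebellum (25.6% higher in liver) and 64.4% against the thalamus-pituitary (24.1% higher). MSMO1 was 73.2-fold higher in control liver than in control cerebellum and 37.0-fold higher than in control thalamus-pituitary. MVK was 23.5-fold and 14.2-fold higher, DHCR7 12.0-fold and 7.20-fold, and MVD 8.34-fold and 7.31-fold (edgeR adjusted p at most 0.000674 in each). These sizes rest on the scaling. Under total scaling the log2 fold changes of control liver over control cerebellum and over control thalamus-pituitary were 4.00 and 3.13 for MSMO1, 2.38 and 1.76 for MVK, 1.36 and 0.75 for DHCR7 and 0.86 and 0.79 for MVD.

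FDPS had the smallest gap between the tissues. Control liver was 3.38-fold above control cerebellum (log2 fold change 1.76, edgeR adjusted p = 0.00581) and 2.10-fold above control thalamus-pituitary (1.07, adjusted p = 0.0323) with TMM scaling, but the direction turned under total scaling, to -0.44 (adjusted p = 0.290) and -1.01 (adjusted p = 0.0223). That scaling moved the median of all transcripts to -2.61 and -2.63, against -0.43 and -0.56 with TMM, and kept the other members higher in control liver, with MVD and DHCR7 no longer called against the thalamus-pituitary (edgeR adjusted p = 0.0542 and 0.0554). Without control thalamus-pituitary replicate 1 or 2 the FDPS difference was not called (edgeR adjusted p = 0.144 and 0.209).

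SOAT2 was 621-fold higher in control liver than in control cerebellum by its counts (395 and 420 against 4 and 1, exact 95% interval 265 to 1919, covering counting error only). Against control thalamus-pituitary it was at least 896-fold higher by the mean of the control livers and at least 478-fold by the lower one alone, taking 3 counts per library as the floor. In hormone-treated fish SOAT2 was at least 83.6-fold higher in T2 livers than in T2 cerebellum and at least 167-fold higher than in T2 thalamus-pituitary. With T3 the liver was at least 133-fold above the cerebellum and at least 132-fold above the thalamus-pituitary. These T2 and T3 bounds use the mean of both livers. The lower T2 liver alone gave 80.6-fold and 161-fold, and the lower T3 liver 107-fold and 106-fold, in that order. All of these sizes rest on TMM scaling. Scaled by library totals, SOAT2 in control livers stood at 189 and 65.6 CPM, against 525 and 191 CPM with TMM. Its CPM also fell in T2 and T3 livers and rose where detected in the brain regions. Each fold and bound would thus be smaller.

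Between the control brain regions, DHCR7 and MSMO1 were lower in the cerebellum than in the thalamus-pituitary, by log2 fold changes of -0.61 and -0.86 (edgeR adjusted p = 0.0346 and 0.0232). These were 2 of the 5 members tested, and 26.3% of all transcripts passed, 15.6% as lower. With each library left out, DHCR7 lay between -0.67 and -0.56 and MSMO1 between -1.06 and -0.64. The calls were lost in most of these fits, which leave 1 library in a group, and calls over all transcripts fell too. FDPS lay below as well (-0.56, edgeR adjusted p = 0.0701), and MVD did not separate the regions (-0.07).

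Over the 9 groups, each synthesis enzyme had its highest mean CPM in T2 liver, then in T3 liver and then in control liver, with the 6 brain groups below, under TMM scaling. Scaled by library totals, FDPS in control liver stood at 19.6 and 11.4 CPM, below the control thalamus-pituitary at 31.2 and 28.8 CPM. Neighbours in that order overlapped in the liver only for MSMO1 between T2 and T3. SOAT2 was highest in control liver, followed by T2 and T3 liver, whose libraries overlapped. Control thalamus-pituitary came next after the liver groups for MVD, FDPS, MSMO1 and DHCR7, while for MVK the brain groups lay between 3.57 and 5.995 CPM in mean. The MVK libraries of the brain groups overlapped, except that control cerebellum, at 4.19 and 2.96 CPM, overlapped T3 cerebellum only.

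Among themselves, the synthesis enzymes moved together over the 6 liver libraries. Pearson's r of log2 CPM was 0.99 between FDPS and MVD, 0.98 between FDPS and DHCR7 and 0.97 between MVD and DHCR7. MVK and MSMO1 had an r between 0.60 and 0.84 with the other synthesis enzymes and with each other, and SOAT2 an r between -0.92 and -0.78 with the 5. Over all 18 libraries every pair was positive, from 0.77 to 0.99. These are descriptions, since the libraries share groups, tissues and scaling.

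The transcripts most like FDPS, MVD, MVK and DHCR7 were sought by Pearson's r with the mean of their standardised log2 CPM. MSMO1 was not part of this mean, and its own r with it over the 6 liver libraries was 0.77. Over the 6 liver libraries the highest were NUP133 (ENSONIT00000000075, r = 0.9998), which encodes a nuclear pore protein, RBM4 (ENSONIT00000023157, r = 0.999), an RNA-binding protein, and COPS6 (ENSONIT00000002960, r = 0.998), a subunit of the COP9 signalosome. The others were ENSONIT00000021453 and ENSONIT00000023905, which have no symbol, with r = 0.998 and 0.997. Over the 18 libraries the 5 highest had no symbol, and ENSONIT00000003547 led with r = 0.996. The search ran over the 19221 transcripts that passed the low-count filter over the 18 libraries. With so few libraries, which share groups and scaling, a high r is a description only.

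Other genes of lipid metabolism were looked up where the study's lists pair a transcript with the symbol. Because those lists hold transcripts that the study called, 74.8% of all transcripts with a symbol passed in the liver with T2 (33.3% higher and 41.5% lower) and 54.9% with T3 (26.3% higher and 28.6% lower), and the counts that follow describe the lists and are not independent evidence. The members' own pathway is poorly covered, since only 2 of 20 other sterol synthesis symbols had a pair. FAXDC2 (ENSONIT00000021845), a fatty acid hydroxylase-domain protein, measured 350 and 446 CPM in T2 livers and 506 and 499 CPM in T3 livers, against 2842 and 2320 CPM in control livers, and fell by 2.56 and 2.35 on the log2 scale (edgeR adjusted p = 0.0124 and 0.0155). LBR (ENSONIT00000014380), a nuclear envelope protein with sterol reductase activity, did not pass with either hormone (log2 fold change 0.25 with T2 and -1.07 with T3, edgeR adjusted p = 0.692 and 0.102).

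The branch of farnesyl diphosphate to protein prenyl groups, dolichol and ubiquinone had 6 of 15 symbols paired. All 6 rose with T2 and 4 of 6 with T3, with median log2 fold changes of 1.96 and 1.80. PGGT1B (ENSONIT00000018957), a subunit of geranylgeranyl transferase, measured 35.9 and 33.5 CPM in T2 livers and 29.4 and 23.7 CPM in T3 livers, against 3.98 and 6.36 CPM in control livers (log2 fold changes 2.84 and 2.32, edgeR adjusted p = 0.0131 and 0.0253). ZMPSTE24 (ENSONIT00000004491), a protease of prenylated proteins, measured 132 and 144 CPM with T2 and 131 and 121 CPM with T3, against 9.30 and 31.8 CPM in the controls (2.83 and 2.57, edgeR adjusted p = 0.0187 and 0.0259). DESeq2 called 3 of 6 with T2.

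Fatty acid and glyceride synthesis had 11 of 15 symbols paired, with 12 transcripts tested, of which 5 rose and 2 fell with T2, and 4 rose with T3. AACS (ENSONIT00000021403), which activates acetoacetate for lipid synthesis, measured 120 and 123 CPM in T2 livers and 108 and 87.6 CPM in T3 livers, against 7.97 and 10.9 CPM in control livers (log2 fold changes 3.82 and 3.37, edgeR adjusted p = 0.0101 and 0.0128). TECR (ENSONIT00000020667), an enoyl-CoA reductase of fatty acid elongation, measured 747 and 734 CPM with T2 and 619 and 506 CPM with T3, against 87.6 and 114 CPM in the controls (3.04 and 2.52, edgeR adjusted p = 0.0101 and 0.0129). FASN (ENSONIT00000009201), fatty acid synthase, was above both controls in all 4 hormone-treated livers, but the controls lay far apart at 455 and 3059 CPM, and it did not pass (2.60 and 2.23, edgeR adjusted p = 0.0750 and 0.110). LPIN1 and LPIN2 (ENSONIT00000021674 and ENSONIT00000011590), phosphatidate phosphatases, were the 2 that fell with T2. With no low-count filter, 9 of 12 rose with each hormone.

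Sterol uptake, efflux and breakdown had 15 of 31 symbols paired and 14 transcripts tested, of which 8 fell and 1 rose with T2, and 5 fell with T3. NR1H3 (ENSONIT00000007345), the liver X receptor that senses oxysterols, measured 16.8 and 20.1 CPM with T2 and 22.1 and 33.0 CPM with T3, against 55.8 and 134 CPM in the controls (-2.19 and -1.75, edgeR adjusted p = 0.0237 and 0.0478). ABCA1 (ENSONIT00000002004), which exports cholesterol, fell with both hormones (-1.83 and -1.62, edgeR adjusted p = 0.0325 and 0.0249). CYP7A1 (ENSONIT00000007922), the rate-limiting enzyme of bile acid synthesis, passed with T2 (-1.70, edgeR adjusted p = 0.0302) and not with T3 (-1.80, 0.0582). SULT2B1 (ENSONIT00000024671), a sterol sulfotransferase, alone rose with T2, at 34.2 and 26.1 CPM against 0 counts in both controls, at least 11.3-fold higher. Under total scaling only 2 of these 14 transcripts fell with T2 and 1 with T3, so this count depends on the scaling.

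**Figure D5:**
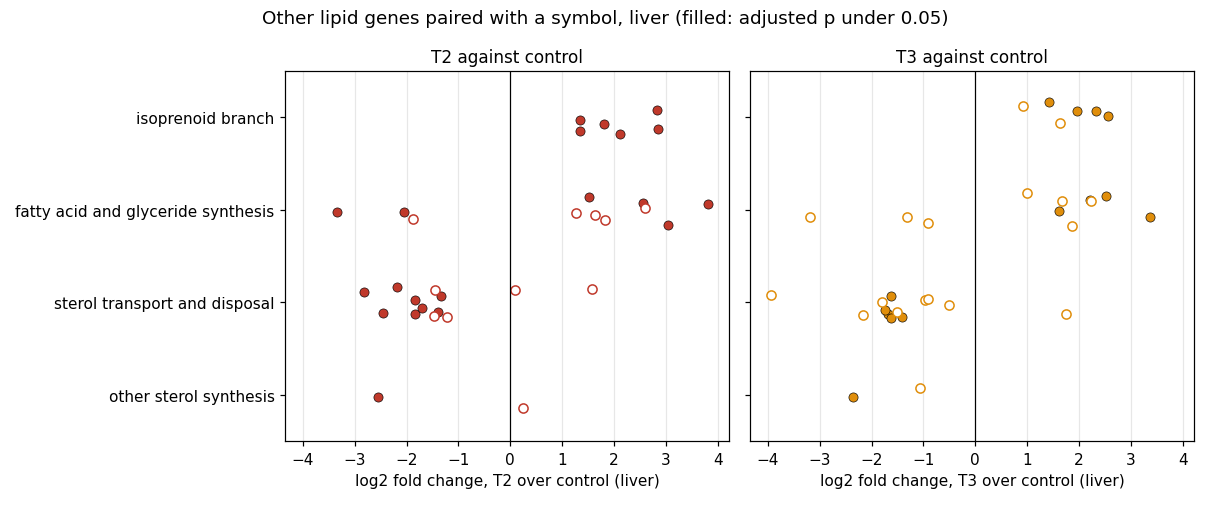
Log2 fold change in liver of the other lipid transcripts that have a symbol, with T2 (left) and T3 (right) over control; each point is 1 transcript, filled points passed the test, and SULT2B1 and MOGAT2, with at most 3 counts in each control, are left out. The isoprenoid branch lies at positive values and most of the transport list at negative values, as in the medians of 1.96 and -1.47 with T2.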

How the data were processed

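The authors checked the reads with FastQC, mapped them with Bowtie 1.1.2 to the Ensembl coding sequences of Orenil1.0 and deposited 1 effective count per transcript and library, an estimated count from eXpress with no normalization between libraries. They also deposited edgeR tables of fold changes and p-values, which were not used.

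Effective counts were rounded. Each comparison was fitted to its own libraries in edgeR 4.0.16 (R 4.3.3), after filterByExpr (smallest count 10, smallest sum 15) and TMM scaling, with the quasi-likelihood test, Benjamini-Hochberg adjustment over all transcripts tested and a threshold of 0.05. Standard errors are the log2 fold change over the root of the F statistic, and intervals are 95% intervals. A group whose libraries hold at most 3 counts was treated as at the floor. Totals per library had a median of 4915757 counts. The exact interval of the SOAT2 counts and the floors cover counting error only. The other 95% intervals include the spread between libraries. With 2 libraries per group, p-values rest on the spread between fish in liver-only fits and between pools of fish in brain-only fits. The quasi-likelihood test also draws the spread of each transcript toward that of all transcripts. The number of tanks per group is not given in the sources used here, so tank and hormone cannot be told apart. Fits across liver and a brain region estimate a common spread per transcript from livers of single fish and from brain pools together. The p-values of those fits, the interaction terms included, thus measure neither spread alone. Whether this sharing overstates the certainty about the liver was not tested.

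All 6 members were named. Of the wider lists every transcript with a symbol was counted, and those past the threshold in liver, with NR1H3, CYP7A1, ABCA1, LBR, FAXDC2 and FASN, could be named, and 1 transcript under this rule is not reported here. The members and lists were chosen with earlier results of these data known. Symbols came from the part of the study's cluster lists held here, which pairs 1646 transcripts with a symbol, because none of 42644 RefSeq genes carried an Ensembl identifier. Whether near-identical transcripts share reads with a member was not tested. At most 1.73% of transcripts with over 20 counts had equal counts in any pair of libraries, so all libraries were taken as distinct.

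Alternatives were DESeq2 1.42.0, the exact test of edgeR (filtered or not), no filter, total scaling, 1 fit over all libraries of the tissues, a block for the replicate number, unrounded counts and leaving out each library.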

Additional observations from a re-analysis of the deposited data

Results flagged for a closer look

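The response to hormone differed between liver and a brain region in 11 cases by the interaction term of edgeR's quasi-likelihood test, each more positive in the liver. Against the cerebellum the differences on the log2 scale were 5.92 for FDPS, 2.62 for MVD and 2.94 for DHCR7 with T2, and 4.46 for FDPS, 2.15 for MVD and 2.19 for DHCR7 with T3. Against the thalamus-pituitary they were 5.82 for FDPS, 2.58 for MVD and 2.81 for DHCR7 with T2, and 4.21 for FDPS and 2.18 for DHCR7 with T3. The 4 comparisons share the control livers in whole, and those of 1 hormone share its livers too. The members come from the study's lists of called transcripts, so the number of cases is not independent evidence.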

How the results depend on the processing

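Of 946 values of the members under the alternatives, 917 kept their direction and 29 reversed, 27 of these when a single library was left out. The other 2 were FDPS in control liver over the control brain regions, at -0.44 against the cerebellum and -1.01 against the thalamus-pituitary under total scaling. With each library left out in turn, these log2 fold changes crossed 0. In the cerebellum with T2 over control they were MVD (-0.31 to 0.027) and MSMO1 (-0.69 to 0.14), and with T3 MVK (-0.065 to 1.18). In the thalamus-pituitary they were MVD (-0.35 to 0.33) and MVK (-0.24 to 0.14) with T2, and FDPS (-0.35 to 0.16), MVD (-0.48 to 0.40) and MVK (-0.16 to 0.22) with T3. For T2 over T3 they were MSMO1 (-0.13 to 0.40) and SOAT2 (-0.037 to 0.53) in liver, MSMO1 (-0.071 to 0.76), MVD (-0.069 to 0.26) and MVK (-0.44 to 0.81) in the cerebellum, and MVK (-0.22 to 0.033), MVD (-0.40 to 0.44) and DHCR7 (-0.32 to 0.15) in the thalamus-pituitary. They also held the MVK difference between liver and cerebellum (-0.078 to 1.33 with T2, -0.31 to 1.13 with T3) and MVD between the control brain regions (-0.38 to 0.31).

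The number of members called lay between 2 and 5 with T2 and between 1 and 6 with T3 in liver with each library left out, where fewer samples are fitted. For liver less brain responses it lay between 0 and 4 against the cerebellum with T3, and between 1 and 5 with T2 and 0 and 4 with T3 against the thalamus-pituitary. That T3 count was 4 with DESeq2, with scaling by the total and with all libraries in 1 fit. The count for the control brain regions lay between 0 and 1. For T2 against T3 in liver, DESeq2 and the exact test after the filter called 1. The exact test could not be run for differences between tissues.

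Within each tissue the replicate numbers showed no pairing of the libraries, since same-numbered deviations correlated between -0.16 and 0.15. Pairing across tissues was not examined, although the paper's fish numbers let livers and brain pools of a group share fish. The fits across tissues treated all libraries as independent. This check sees only an effect that follows the replicate number, and batches that cross the numbers were not tested. The share of mapped reads that the paper lists differed between the libraries of some brain groups. In the liver it was higher in both T3 libraries than in all T2 and control libraries. The part of this share in the results was not tested. With the replicate number as a block, 1 member was called for T3 in liver less thalamus-pituitary, and DHCR7 lost its T3 calls in liver (log2 fold change 1.59, edgeR adjusted p = 0.0628) and in the liver less cerebellum comparison (2.23, 0.0779). The block changed the side of the threshold for no other member value except DHCR7 in the T3 difference from the thalamus-pituitary (2.25, 0.102). Over all transcripts, the split of differences more positive against more negative in liver with T2 was 900 to 910 against the cerebellum with DESeq2 and 1941 to 187 with scaling by the total, in place of 938 to 321. The cause of these changes was not tested. At 0 to 4 counts per library, SOAT2 gave no measure of a response in the brain.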
